A study of Mus musculus with 9 samples.

Results

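Chemokines and their receptors were examined in the infarct border zone of mouse hearts. Members were all genes of the count files whose mouse symbol matches the chemokine ligand series Ccl, Cxcl, Cx3cl and Xcl, the receptor series Ccr, Cxcr, Cx3cr and Xcr, or the atypical receptor series Ackr, each followed by a number. This gave 60 of 53465 genes, namely 38 ligands, 18 receptors and 4 atypical receptors. A total of 28 members (18 ligands, 6 receptors and all 4 atypical receptors) had enough reads to be tested, 23 had counts too low for testing, and 9 had no counts in any library. All mice were NOD-SCID, an immunodeficient strain whose severe combined immunodeficiency mutation leaves few mature T and B cells. The 3 groups were hearts with sham surgery, hearts with coronary artery ligation, and hearts with the same ligation that also received FOXO3-GE-MPCs (called cells here), each with 3 libraries of total RNA. Age, sex and time after surgery were not in the labels used here, and no group with vehicle or with other cells was analysed here, so the act of implantation and the implanted cells cannot be told apart. For cell replicates 2 and 3 the titles and the treatment entries give FOXO3, which was followed, but the sample source entries give a different FOXO member.

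The file headers of sham replicates 1 and 2 share a name stem, as do those of ligation replicates 2 and 3. Nothing in the labels says that the libraries of a group came from separate animals, so the p-values measure the spread between these libraries, which may be partly technical. Gene positions are those of GENCODE M21 on mm10. Libraries held between 4549268 and 7515052 gene counts. Levels are CPM (counts scaled to a common library size, with trimmed-mean TMM factors), and 3 counts, taken as the smallest detectable level, equal 0.374 to 0.638 CPM. A difference is called when its Benjamini-Hochberg adjusted p in edgeR's quasi-likelihood test, adjusted over all 13825 tested genes, is under 0.05. The labelled tissue was checked against heart muscle genes. Tnnt2, cardiac troponin T, was at 9224, 9597 and 9225 CPM in sham, 9617, 8682 and 8552 in ligation and 8338, 8435 and 8075 with cells. Mitochondrial genes took 19.1% to 19.9% of gene counts in sham and 12.5% to 14.3% in the other libraries, and the part of this in the results was not tested.

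Chemokines are small secreted proteins named for the spacing of their first cysteines (CC, CXC, CX3C and XC). They form gradients that guide leukocytes through G protein-coupled receptors, and many inflammatory chemokines bind several receptors. Atypical receptors bind chemokines without G protein signalling and remove or transport them. In the infarcted heart the CCL2-CCR2 axis is known for recruiting monocytes, CX3CR1 marks patrolling monocytes and many resident macrophages, and CXCL12 from stromal and vascular cells holds CXCR4-bearing cells in place.

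Sequences just upstream of the start sites are shown for 4 ligands on which the results turn: Cxcl9 and Cxcl10, the interferon-induced neighbours on chromosome 5, and Cxcl13 and Cxcl14, whose mean CPM rose the most after ligation among the members. Each is the 250 bases before the RefSeq start site in GRCm38.p6 (mm10), 5′ to 3′ on the strand of the gene, from the C57BL/6J reference and not from NOD-SCID mice. Capitals mark matches on either strand to 3 motifs: the interferon-gamma activated site TTCNNNGAA, the interferon-stimulated response element core, in which TTTC is repeated after 2 free bases, and the NF-kB consensus. The windows lie at chr5:92328080-92328329 (minus strand), chr5:92348890-92349139 (minus strand), chr5:95956689-95956938 (plus strand) and chr13:56296552-56296801 (minus strand).
Cxcl9: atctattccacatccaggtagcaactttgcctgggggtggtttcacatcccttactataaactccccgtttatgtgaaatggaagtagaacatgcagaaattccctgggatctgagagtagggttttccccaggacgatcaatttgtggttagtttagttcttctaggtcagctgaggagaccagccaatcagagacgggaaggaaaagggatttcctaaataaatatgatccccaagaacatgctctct
Cxcl10: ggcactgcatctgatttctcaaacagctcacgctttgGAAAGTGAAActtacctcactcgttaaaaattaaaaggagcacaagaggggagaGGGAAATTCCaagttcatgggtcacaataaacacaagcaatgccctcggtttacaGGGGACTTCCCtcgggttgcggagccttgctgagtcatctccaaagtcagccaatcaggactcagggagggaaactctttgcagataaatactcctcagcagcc
Cxcl13: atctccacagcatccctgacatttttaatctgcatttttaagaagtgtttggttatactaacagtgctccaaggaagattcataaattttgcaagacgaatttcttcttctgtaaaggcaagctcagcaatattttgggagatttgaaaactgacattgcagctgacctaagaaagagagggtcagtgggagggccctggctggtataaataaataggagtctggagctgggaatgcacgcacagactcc
Cxcl14: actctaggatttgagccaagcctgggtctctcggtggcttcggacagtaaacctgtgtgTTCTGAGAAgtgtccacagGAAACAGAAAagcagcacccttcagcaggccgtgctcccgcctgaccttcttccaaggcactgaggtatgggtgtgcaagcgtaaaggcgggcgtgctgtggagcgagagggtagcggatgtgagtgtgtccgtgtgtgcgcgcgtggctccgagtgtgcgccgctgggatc
The Cxcl10 window holds 1 interferon-stimulated response element match and 3 NF-kB matches, of which 2 overlap. The Cxcl14 window holds 1 match to each of the interferon motifs and 0 NF-kB matches. Neither the Cxcl9 nor the Cxcl13 window holds any of these exact letters. Of all 32851 RefSeq windows of this length, 7.02% hold the activated site, 2.98% the response element core and 7.25% the NF-kB consensus. Windows were listed for 45 of the 60 members, 22 of them tested. Some genes have more than 1 listed start site, and among the 52 windows of members the same motifs are in 5.77%, 5.77% and 21.2%. A match is a description of letters and not a measured binding site.

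Per kb of exon, Cxcl12 was the most abundant tested member in sham hearts at 63.4 CPM per kb, followed by Cxcl14 at 30.9, Ackr3 at 26.6 and Ccl6 at 23.1. After ligation the highest were Cxcl14 (78.6), Cxcl12 (41.6), Ccl8 (40.7) and Ccl6 (30.2). With cells they were Cxcl14 (48.3) and Cxcl12 (40.1). Cxcr4 was the highest of the signalling receptors in each group, at 9.398, 10.1 and 6.94 CPM per kb.

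After ligation 11 of the 28 tested members rose and 5 fell, while 12 did not pass. Over all tested genes 20.1% were called higher and 18% lower in this comparison, 38.2% in either direction. Those that rose included Ccl6, Ccl8, Cx3cl1, Cxcl13, Cxcl14, Ccr1, Ccr2, Cx3cr1, Ackr1 and Ackr4, and those that fell were Ccl11, Ccl27a, Cxcl9, Cxcl12 and Ackr3. In ligated hearts with cells, 14 of the 28 were lower than in ligation alone and 1, Ackr3, was higher, against 5.69% of all genes called lower and 4.19% higher, 9.87% in either direction. The 14 included Ccl6, Ccl8, Ccl9, Ccl12, Cxcl9, Cxcl13, Cxcl14, Cxcl16, Ccr1, Ccr2, Cx3cr1, Cxcr4 and Ackr2. Against sham, 15 were lower and 5 higher with cells, where 20% and 21% of all genes were called, 40.9% in either direction. The median log2 difference of the 28 was 0.26, -0.66 and -0.67 in the 3 comparisons, and that of all tested genes was 0.01, 0.00 and -0.01. The 3 comparisons share libraries, so their values are set side by side and are not independent of each other.

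**Figure D1:**
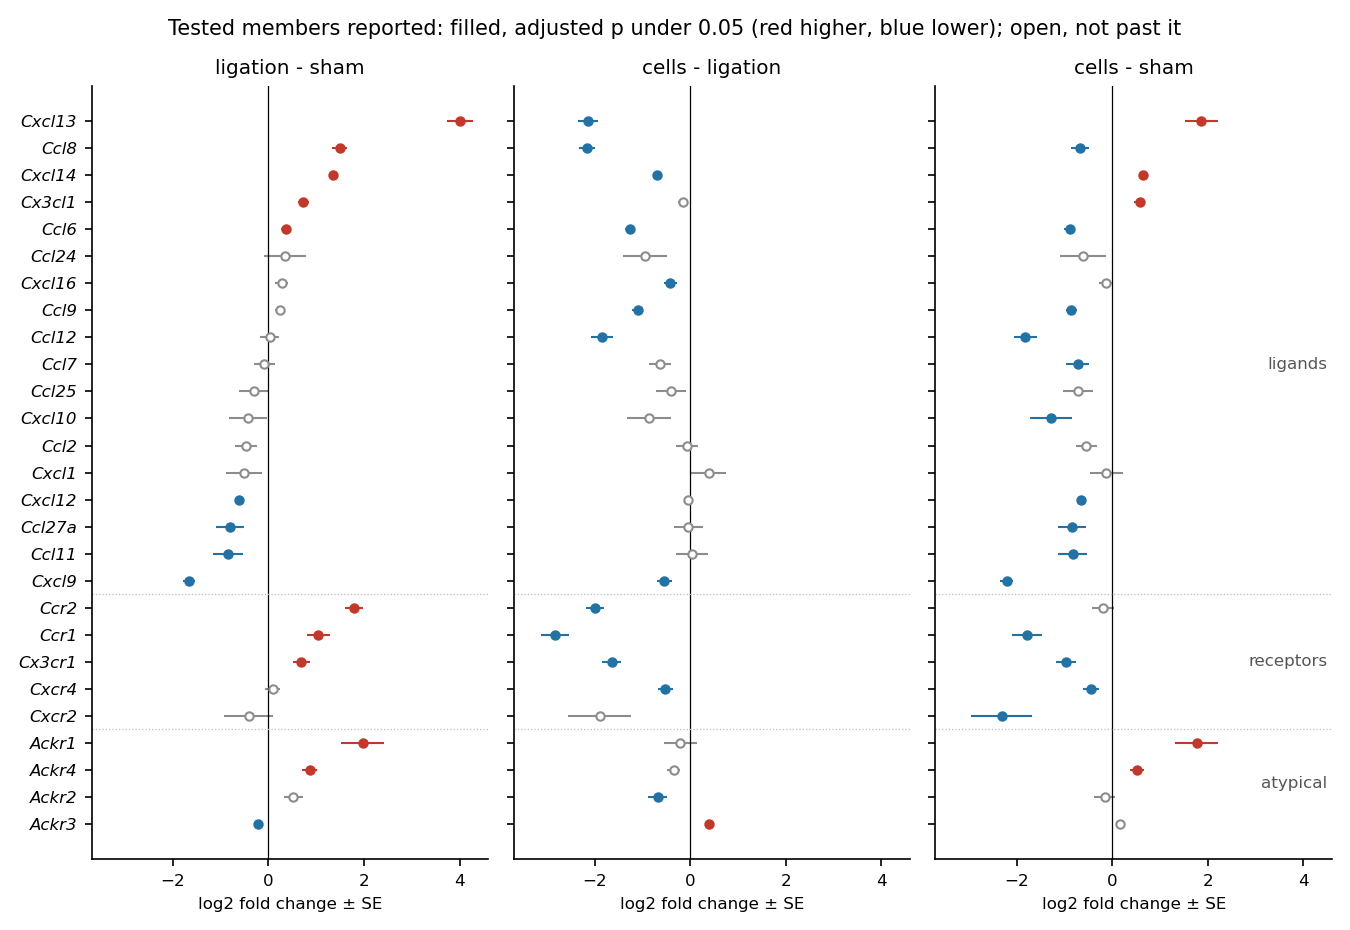
Log2 fold change (x axis, with its standard error) of the tested chemokine ligands, receptors and atypical receptors reported here, in 3 comparisons of 3 libraries against 3. Filled points passed an adjusted p of 0.05 in edgeR's quasi-likelihood test, red higher and blue lower, and open grey points did not; Cxcl13 lies farthest to the right after ligation, and Ccr1 farthest to the left in cells against ligation.

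Among the tested ligands, Cxcl13 (ENSMUSG00000023078; chr5:95956951-95961068), which attracts B cells through CXCR5, had the largest fold rise after ligation. It was at 1.598, 0.822 and 0.792 CPM in the sham libraries, 16.6, 16.6 and 18.5 after ligation and 2.97, 5.12 and 3.59 with cells. The 3 groups did not overlap: ligation was highest, and the cell libraries lay between ligation and sham. The rise after ligation was 16.1-fold (log2 4.01, SE 0.276, edgeR adjusted p 3.30e-10). With cells it was 4.41-fold lower than in ligation (edgeR adjusted p 4.67e-07) and still 3.65-fold higher than in sham (edgeR adjusted p 0.000179). Its receptor Cxcr5 had at most 1 count in any library. The 5 mesothelial markers rose after ligation (Upk3b, Msln, Wt1, Krt19 and Lrrn4, 5 of 5 called, against 20.1% of all tested genes; Wt1 overlapped between the groups), with a summed level of 32.0 to 42.8 CPM in sham, 212 to 248 in ligation and 169 to 175 with cells. In cells against ligation Upk3b, Krt19 and Lrrn4 were called lower, 3 of 5, against 5.69% of all tested genes. Msln and Wt1 did not pass there (log2 -0.09 and 0.27, edgeR adjusted p 0.619 and 0.221). Every cell library lay above the ligation libraries for Wt1. The part of these markers in the Cxcl13 result was not tested.

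Cxcl14 (ENSMUSG00000021508; chr13:56288643-56296551), a widely expressed homeostatic chemokine made by many stromal and epithelial cells, followed the same order. Its levels were 57.9, 60.5 and 50.8 CPM in sham, 136, 143 and 152 in ligation and 86.9, 94.8 and 83.1 with cells, and no library of one group reached the range of another. Cxcl14 rose 2.55-fold after ligation (SE of the log2 change 0.0752, edgeR adjusted p 1.22e-11). It was 1.63-fold lower with cells than in ligation and 1.57-fold higher than in sham, with edgeR adjusted p-values of 6.72e-07 and 8.78e-07.

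Cxcl12 (ENSMUSG00000061353; chr6:117168535-117181367), the ligand of CXCR4 and of the atypical receptor ACKR3, fell after ligation. It was at 516, 527 and 511 CPM in sham and 333, 340.3 and 346 in ligation, a 1.52-fold decrease (log2 -0.61, SE 0.04401, edgeR adjusted p 6.88e-10). The cell libraries, at 333, 318 and 332 CPM, overlapped those of ligation. The log2 difference between cells and ligation was -0.05 (SE 0.0441) and did not pass (edgeR adjusted p 0.528). With cells, Cxcl12 was 1.58-fold lower than in sham (edgeR adjusted p 1.65e-10). Most endothelial and mural marker genes fell in the same comparison: 6 of 7 and 5 of 6 were called lower after ligation, against 18% of all tested genes, and Vwf and Cspg4 rose. Their sums went from 1958 to 2064 CPM in sham to 1376 to 1474 in ligation for endothelium, and from 1683 to 1733 CPM to 1180 to 1213 for mural cells. With cells they were 1452 to 1493 and 1185 to 1227 CPM, and their part in the Cxcl12 result was not tested. In bulk tissue, fewer cells of a type and less RNA per cell cannot be told apart.

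The interferon-induced ligands of CXCR3, the receptor of activated T and NK cells, lie side by side on chromosome 5. Cxcl9 (ENSMUSG00000029417; chr5:92321347-92328079) had the largest fold decrease of the tested members after ligation. It was at 35.3, 38.3 and 37.4 CPM in sham, 13.2, 10.1 and 12.1 in ligation and 9.34, 6.64 and 8.05 with cells, so each group lay below the one before without overlap. The ligation decrease was 3.16-fold (SE of the log2 change 0.1295, edgeR adjusted p 2.09e-09) and that with cells against sham was 4.62-fold (edgeR adjusted p 4.96e-11). The further fall of 0.55 on the log2 scale between ligation and cells passed with an edgeR adjusted p of 0.0295. That call was lost without ligation replicate 1 or 3 or cell replicate 2 or 3 (edgeR adjusted p 0.0679 to 0.137).

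Cxcl10 (chr5:92346638-92348889), whose upstream window holds the interferon and NF-kB matches shown above, was much lower in counts. It had 13, 23 and 10 counts in sham, 11, 10 and 16 in ligation and 4, 9 and 9 with cells. Only the difference between cells and sham passed, a 2.44-fold decrease (SE of the log2 change 0.442, edgeR adjusted p 0.0245), and it was lost without sham replicate 2 or cell replicate 1 (edgeR adjusted p 0.184 and 0.111). The third ligand, Cxcl11, had no counts in any library, and Cxcr3 had 1, 3 and 2 counts in sham, 3, 4 and 2 in ligation and 0 in every cell library. Interferon gamma itself (Ifng) had counts in 1 library only. The interferon-responsive transcription factor Irf1 fell in all 3 comparisons. It fell by 0.47, 0.48 and 0.96 on the log2 scale (largest edgeR adjusted p 0.00162).

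**Figure D2:**
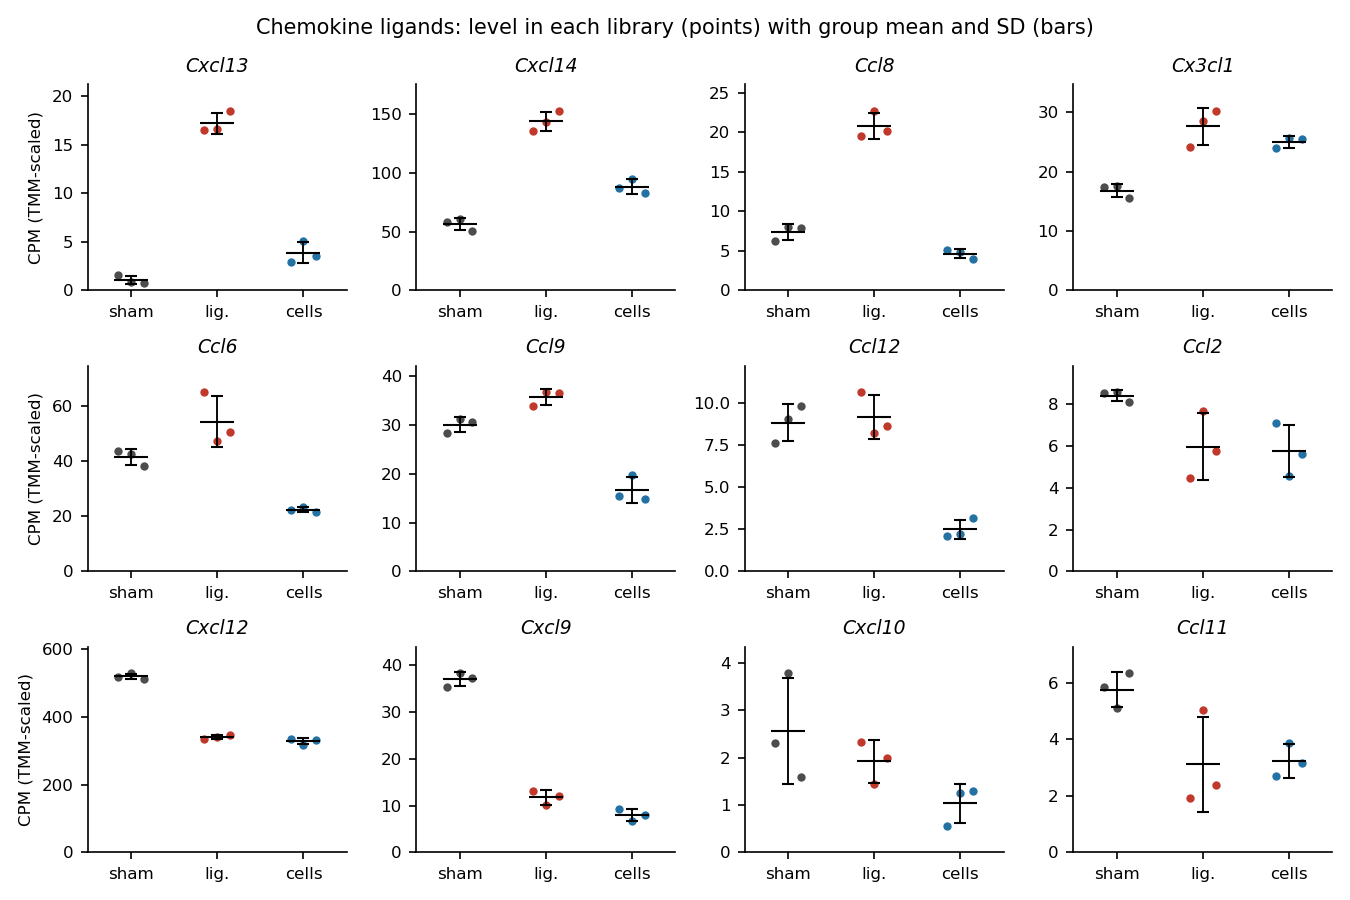
CPM (y axis, linear, each panel from 0) of 12 chemokine ligands in sham, ligation (lig.) and ligation with cells. Points are libraries, 3 per group, and black bars are the mean and SD; Cxcl13, Cxcl14 and Ccl8 peaked in ligation, Cxcl9 and Cxcl12 were highest in sham, and Ccl12 was lowest in the 3 cell libraries.

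The CC ligands of the monocyte chemoattractant cluster on chromosome 11 (Ccl2, Ccl7, Ccl11, Ccl12 and Ccl8, from chr11:82035571-82037453 to chr11:82115185-82116799) did not move together. Ccl2 and Ccl7, both CCR2 ligands, did not pass after ligation. Ccl2 was at 8.52, 8.55 and 8.08 CPM in sham, 4.46, 7.65 and 5.73 in ligation and 7.08, 4.57 and 5.605 with cells, with all sham libraries above the other groups. Its log2 difference was -0.47 (SE 0.224) after ligation and -0.08 (SE 0.231) with cells against ligation, with edgeR adjusted p-values of 0.111 and 0.8904. Without ligation replicate 2 the first of these passed (edgeR adjusted p 0.0447). The cells against sham value was -0.54 (edgeR adjusted p 0.05803), which passed without ligation replicate 1 or cell replicate 1 (edgeR adjusted p 0.0468 and 0.0327) and in limma-voom with all libraries (adjusted p 0.0438). Ccl7 was at 6.39, 6.08 and 9.34 CPM in sham, 6.59, 8.08 and 5.98 in ligation and 3.96, 4.98 and 4.31 with cells. It was lower with cells than in sham by 1.65-fold (edgeR adjusted p 0.0188), a call lost without sham replicate 3 or cell replicate 1 (edgeR adjusted p 0.141 and 0.0684) or with library totals alone (0.0571).

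Ccl12 (ENSMUSG00000035352), the remaining CCR2 ligand of the cluster, overlapped between sham and ligation, at 7.63, 9.04 and 9.82 CPM in sham and 10.6, 8.23 and 8.602 in ligation, and was at 2.12, 2.21 and 3.16 CPM with cells. All 3 cell libraries lay below the other 6. Ccl12 was 3.605-fold lower with cells than in ligation (SE of the log2 change 0.236, edgeR adjusted p 1.67e-05) and 3.53-fold lower than in sham (edgeR adjusted p 3.37e-06). Ccl8 (ENSMUSG00000009185) is a mouse ligand of CCR8. It was at 6.21, 8.05 and 7.92 CPM in sham, 19.6, 22.7 and 20.2 in ligation and 5.09, 4.84 and 4.02 with cells, and the 3 groups did not overlap. Ccl8 rose 2.81-fold after ligation (edgeR adjusted p 1.75e-07) and was 4.47-fold lower with cells (edgeR adjusted p 1.15e-08), ending 1.59-fold below sham (edgeR adjusted p 0.008402). Ccr8 had no counts in any library.

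Ccl11 (eotaxin-1), a ligand of the eosinophil receptor CCR3, was at 5.86, 5.09 and 6.33 CPM in sham, 1.91, 5.05 and 2.37 in ligation and 2.69, 3.87 and 3.16 with cells. Every ligation and cell library lay below the sham libraries. It fell 1.81-fold after ligation and was 1.77-fold lower with cells than in sham, and the edgeR adjusted p was 0.0369 and 0.0375. The first call was lost without sham replicate 1 or 3 or ligation replicate 1 or 3 (edgeR adjusted p 0.0766 to 0.157). The second was lost without sham replicate 1 or 3 or cell replicate 1 or 3 (edgeR adjusted p 0.0772 to 0.123), and with library totals alone the adjusted p was 0.0903 after ligation and 0.0834 in cells against sham. Ccl24 (eotaxin-2), with 26, 36 and 20 counts summed over sham, ligation and cells, passed in no comparison. Ccr3 had 1 count in each of 2 cell libraries and 0 elsewhere.

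Ccl6 and Ccl9, macrophage-derived CCR1 ligands that neighbour each other on chromosome 11 (chr11:83587882-83593087 and chr11:83572919-83578636), were both lower with cells than in either other group. Ccl6 was at 43.7, 42.6 and 38.3 CPM in sham, 64.8, 47.3 and 50.6 in ligation and 22.4, 23.4 and 21.4 with cells, and the groups did not overlap. It rose 1.29-fold after ligation (edgeR adjusted p 0.00621), a call lost without ligation replicate 1 (edgeR adjusted p 0.0507), which had the highest value. With cells it was 2.39-fold lower than in ligation (edgeR adjusted p 6.42e-08) and 1.85-fold lower than in sham (edgeR adjusted p 1.79e-06). Ccl9 was at 28.4, 31.2 and 30.6 CPM in sham, 33.8, 36.7 and 36.5 in ligation and 15.4, 19.7 and 14.8 with cells, again without overlap. Its ligation value of 0.25 on the log2 scale did not pass (edgeR adjusted p 0.0639). It was 2.15-fold lower with cells than in ligation and 1.81-fold lower than in sham (edgeR adjusted p 5.79e-07 and 3.91e-06). The other ligands of this second cluster, Ccl3, Ccl4 and Ccl5, were too low to test, with at most 5, 5 and 11 counts in a library.

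Cx3cl1 (ENSMUSG00000031778; chr8:94772009-94782427), or fractalkine, is held on the surface of endothelial and other cells and is the ligand of CX3CR1. It was at 17.4, 17.6 and 15.5 CPM in sham, 24.2, 28.6 and 30.2 in ligation and 23.9, 25.7 and 25.6 with cells. Ligation and cells overlapped, and both lay above sham. Cx3cl1 rose 1.66-fold after ligation (SE of the log2 change 0.115, edgeR adjusted p 3.36e-05). Its log2 difference between cells and ligation was -0.16 (SE 0.106, edgeR adjusted p 0.425), and against sham it was 1.49-fold higher with cells (edgeR adjusted p 0.0004201). Cxcl16, the other membrane-bound chemokine and a scavenger receptor for oxidized lipoprotein, was at 21.3, 17.6 and 20.3 CPM in sham, 20.6, 26.8 and 23.6 in ligation and 20.1, 17.99 and 15.5 with cells. Its 0.42 fall on the log2 scale with cells against ligation (edgeR adjusted p 0.0444) was lost without sham replicate 3, ligation replicate 2 or 3, or cell replicate 2 or 3 (edgeR adjusted p 0.0528 to 0.228), and 18.3% of its exonic bases overlap the antisense gene Zmynd15. Its receptor Cxcr6 had 1 to 12 counts per library.

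The CXCR2 ligands that attract neutrophils were low throughout. Cxcl1 was at 4.44, 3.12 and 4.12 CPM in sham, 4.04, 1.44 and 2.99 in ligation and 5.38, 3.04 and 2.299 with cells, and it passed in no comparison (edgeR adjusted p 0.313, 0.599 and 0.814). Cxcl2 and Cxcl3 had at most 5 and 4 counts in a library. Cxcl5 had 5, 2 and 0 counts in sham, 12, 13 and 8 in ligation and 3, 7 and 2 with cells and was not tested. Its ligation libraries held more counts than any other.

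Ccl27a, a ligand of CCR10, was at 6.92, 6.25 and 8.39 CPM in sham, 4.25, 5.77 and 2.49 in ligation and 2.97, 3.598 and 5.46 with cells, with every sham library highest. It was 1.75-fold lower in ligation and 1.79-fold lower with cells than in sham (edgeR adjusted p 0.0358 and 0.0248), but it shares 57% of its 31-base words with other genes and its counts are uncertain to that extent. The first call was lost without sham replicate 1 or 3 or ligation replicate 1 or 3 (edgeR adjusted p 0.0583 to 0.197), and the second without sham replicate 3 or cell replicate 1 or 2 (edgeR adjusted p 0.0660 to 0.108). With library totals alone neither passed (edgeR adjusted p 0.0914 and 0.0584). Ccl25, a ligand of CCR9 and ACKR4, was at 4.26, 3.12 and 4.28 CPM in sham, 3.19, 3.897 and 2.37 in ligation and 2.41, 2.08 and 2.59 with cells and passed in no comparison.

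Of the 6 tested receptors, 4 rose after ligation and 5 fell with cells against ligation, where 20.1% of all tested genes were called higher and 5.69% lower. Ccr2 (ENSMUSG00000049103; chr9:124101950-124113557), the receptor of inflammatory monocytes, was at 3.91, 4.44 and 4.59 CPM in sham, 15.3, 13.1 and 16.6 in ligation and 3.82, 4.15 and 3.31 with cells. Ligation libraries were all above 13 CPM, and those of the other groups were all under 5 CPM. Ccr2 rose 3.47-fold after ligation (log2 1.79, SE 0.193, edgeR adjusted p 2.41e-07) and was 3.98-fold lower with cells than in ligation (edgeR adjusted p 3.71e-07). Between cells and sham its log2 difference was -0.20 (SE 0.232, edgeR adjusted p 0.525). Its ligand Ccl2 did not pass in edgeR with all 9 libraries in any of these comparisons.

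Ccr1 (ENSMUSG00000025804; chr9:123962124-123968692), the receptor of Ccl6 and Ccl9 on monocytes and neutrophils, had the largest fitted fold decrease of the 28 tested members in cells against ligation. It was at 3.55, 3.45 and 4.28 CPM in sham, 7.86, 7.94 and 7.605 in ligation and 0.991, 1.38 and 0.862 with cells. These are 68, 153 and 23 counts in all, and the 3 groups did not overlap. Ccr1 rose 2.06-fold after ligation (edgeR adjusted p 0.00162), was 7.0995-fold lower with cells than in ligation (SE of the log2 change 0.289, edgeR adjusted p 7.97e-07) and 3.44-fold lower than in sham (edgeR adjusted p 0.000155).

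Cx3cr1 (ENSMUSG00000052336; chr9:119901616-120069879) was at 9.94, 8.22 and 9.34 CPM in sham, 13.6, 16.6 and 13.8 in ligation and 3.54, 6.23 and 4.31 with cells. Ligation was highest and cells lowest, without overlap. It rose 1.61-fold after ligation (log2 0.68, SE 0.181, edgeR adjusted p 0.00493) and was 3.12-fold lower with cells than in ligation (edgeR adjusted p 6.50e-06) and 1.94-fold lower than in sham (edgeR adjusted p 0.00102). The ligand Cx3cl1, by contrast, did not pass between cells and ligation. The difference between these responses was not tested.

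Cxcr4, carried by many leukocytes and by endothelial cells, was at 15.3, 15.1 and 20.6 CPM in sham, 20.6, 16.3 and 17.8 in ligation and 10.3, 15.1 and 12.2 with cells. It did not pass after ligation (edgeR adjusted p 0.707). With cells it fell by 0.53 against ligation and by 0.44 against sham on the log2 scale (edgeR adjusted p 0.0413 and 0.0358). The first call was lost without ligation replicate 1 or 3 or cell replicate 1 or 3 (edgeR adjusted p 0.1001 to 0.171), and the second without sham replicate 3 or cell replicate 1 or 3 (edgeR adjusted p 0.0825 to 0.2302) or with library totals alone (log2 -0.28, edgeR adjusted p 0.165). Cxcr2, the neutrophil receptor, had 6, 14 and 11 counts in sham, 8, 6 and 11 in ligation and 0, 5 and 2 with cells. It was 4.98-fold lower with cells than in sham (SE of the log2 change 0.6403, edgeR adjusted p 0.00637) and did not pass against ligation (edgeR adjusted p 0.08102). The log2 difference of -2.32 against sham was -3.42 without cell replicate 2 and -1.76 without cell replicate 1. Of the 10 neutrophil markers 4 had enough reads to be tested (S100a8, S100a9, Csf3r and Mmp9). After ligation S100a8 and S100a9 fell by 1.92 and 1.90 on the log2 scale, Mmp9 rose by 1.29, and Csf3r was at 0.64 and did not pass (largest edgeR adjusted p of the calls 0.0121). All 4 fell in cells against sham, where 20% of all tested genes were lower, and the list summed to 40.6 to 47.9 CPM in sham, 17.4 to 25.3 in ligation and 5.75 to 7.22 with cells, while Ly6g had no counts in sham and with cells. Their part in the Cxcr2 result was not tested.

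**Figure D3:**
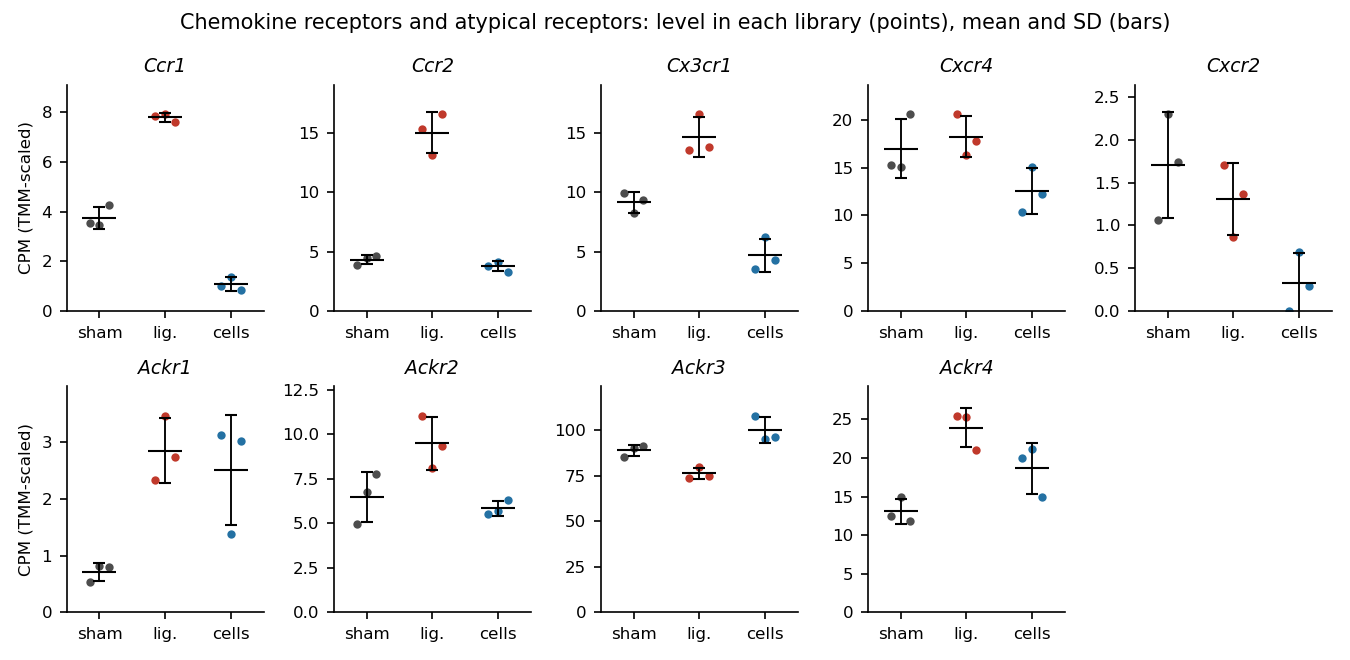
CPM (y axis, linear, each panel from 0) of 5 tested receptors and the 4 atypical receptors in sham, ligation (lig.) and ligation with cells. Points are libraries, 3 per group, and black bars are the mean and SD; Ccr1, Ccr2 and Cx3cr1 were highest in every ligation library, whereas Ackr3 was lowest there.

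The atypical receptors had other patterns. Ackr3 (ENSMUSG00000044337; chr1:90203980-90216751), the scavenger of CXCL12 and the highest receptor of either kind per kb of exon in each group, was at 85.4, 90.4 and 91.1 CPM in sham, 73.96, 79.7 and 74.9 in ligation and 108, 95.2 and 96.3 with cells. It was lowest in ligation and highest with cells, without overlap between the groups. Ackr3 fell by 0.22 on the log2 scale after ligation (edgeR adjusted p 0.0134) and was 1.31-fold higher with cells than in ligation (SE of the log2 change 0.0667, edgeR adjusted p 0.000473). Its 0.17 on the log2 scale between cells and sham did not pass (edgeR adjusted p 0.0513), but it passed with library totals alone, with a filter at a mean of 1 CPM and in a fit of those groups alone. The first call depends on scaling. With library totals alone the median log2 difference of all tested genes was 0.20 after ligation and 0.15 in cells against sham. In that fit the log2 value of Ackr3 after ligation was -0.0339 (edgeR adjusted p 0.724).

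Ackr1, the Duffy receptor of venular endothelium and red cells, had 3, 5 and 5 counts in sham, 11, 24 and 22 in ligation and 22, 10 and 21 with cells. It rose 3.93-fold after ligation (SE of the log2 change 0.451, edgeR adjusted p 0.00154) and was 3.405-fold higher with cells than in sham (edgeR adjusted p 0.00388), though 25.7% of its exonic bases overlap Cadm3 on the same strand. Ackr4, which removes CCL19, CCL21 and CCL25, was at 12.4, 14.96 and 11.9 CPM in sham, 25.5, 25.3 and 21.1 in ligation and 19.95, 21.2 and 14.9 with cells. It rose 1.82-fold after ligation (edgeR adjusted p 9.34e-05) and was 1.43-fold above sham with cells (edgeR adjusted p 0.00938), where 1 cell library lay inside the sham range. Ackr2, the scavenger of inflammatory CC chemokines, was at 4.97, 6.74 and 7.76 CPM in sham, 11.1, 8.08 and 9.35 in ligation and 5.52, 5.67 and 6.32 with cells. Its ligation value missed the threshold (edgeR adjusted p 0.0517). It was 1.61-fold lower with cells than in ligation (edgeR adjusted p 0.0381), a call lost without ligation replicate 1 or 3 or any 1 cell library (edgeR adjusted p 0.0629 to 0.117).

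The 9 members without counts were the ligands Ccl1, Ccl19, Ccl20, Ccl21b, Ccl26 and Cxcl11 and the receptors Ccr4, Ccr8 and Cxcr1. At this depth 0 counts allow up to 0.374 to 0.638 CPM per library, counting error only, so these genes were not detectable rather than absent. Ccl19 shares 58.8% and Ccl21b all of its 31-base words with other genes. Cxcl11, annotated as a polymorphic pseudogene, shares 42.2%, and 41.7% of its exonic bases overlap the antisense gene Gm2673, so the 0 counts of all of these are uncertain. Among the 23 members with counts too low to test, Cxcl17, a mucosal chemokine, had 1, 1 and 3 counts in sham, 1, 2 and 3 in ligation and 11, 12 and 7 with cells. Its cell libraries held more counts than any other library. Ccr7, the lymph node homing receptor of dendritic and T cells, had 5, 1 and 4 counts in ligation and 0 in all sham and cell libraries. Xcr1, a marker of cross-presenting dendritic cells, had 7, 24 and 15 counts summed over sham, ligation and cells, and Ccl5 had 7, 27 and 10. The dendritic cell marker Clec9a, which is no member, had 126, 114 and 91. The other members too low to test were Ccl3, Ccl4, Ccl17, Ccl21a, Ccl22, Ccl27b, Ccl28, Cxcl2, Cxcl3, Cxcl5, Cxcl15, Xcl1, Ccr3, Ccr6, Ccr9, Ccr10, Cxcr3, Cxcr5 and Cxcr6, none above 13 counts in a library.

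Lists of cell type markers were set beside the members. Of 17 monocyte and macrophage markers, 11 rose and 2 fell (Cd163 and Ly6c2) after ligation, 14 fell and 0 rose in cells against ligation, and 13 fell and 0 rose in cells against sham. The shares of all tested genes called higher and lower were 20.1% and 18%, 4.19% and 5.69%, and 21% and 20% in these comparisons. The fall of Ly6c2 is uncertain, since its ligation libraries (2.98, 1.73 and 2.37 CPM) lay inside its sham range (1.07, 6.08 and 11.1 CPM). The 17 markers summed to 907 to 945 CPM in sham, 1466 to 1509 in ligation and 614 to 637 with cells. Csf1r, the receptor that macrophages need for survival, was at 54.5, 50.3 and 44.97 CPM in sham, 77.4, 76.2 and 79.4 in ligation and 29.9, 25.2 and 28.02 with cells. The list's median log2 difference was 0.50, -1.24 and -0.82 in the 3 comparisons. Beside the list, the log2 values of Ccr1, Ccr2 and Cx3cr1 in cells against ligation were -2.83, -1.99 and -1.64. The part of these cells in the receptor and ligand results was not tested. T and NK cell markers were near the detectable level, with 0 of 11 tested and Cd3d without counts. Their summed level was 2.49 to 3.80 CPM in sham, 4.76 to 5.31 in ligation and 0.849 to 1.80 with cells, without overlap between the groups. B cell markers were also near the detectable level, with Ms4a1 without counts and the sum at most 1.25 CPM. Of 6 dendritic cell markers 3 were tested. After ligation Itgax rose, Zbtb46 fell and Clec9a did not pass (edgeR adjusted p 0.00633, 6.47e-06 and 0.374). Over all tested genes 20.1% were higher and 18% lower there. None of the 3 passed in cells against ligation. Zbtb46 and Clec9a were lower in cells against sham, as were 20% of all tested genes. Of 5 fibroblast markers 3 rose (Col1a1, Dcn and Postn) and 1, Pdgfra, fell after ligation, and Tcf21 did not pass. Their levels summed to 1413 to 1449 CPM in sham, 2202 to 2272 in ligation and 2132 to 2197 with cells.

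**Figure D4:**
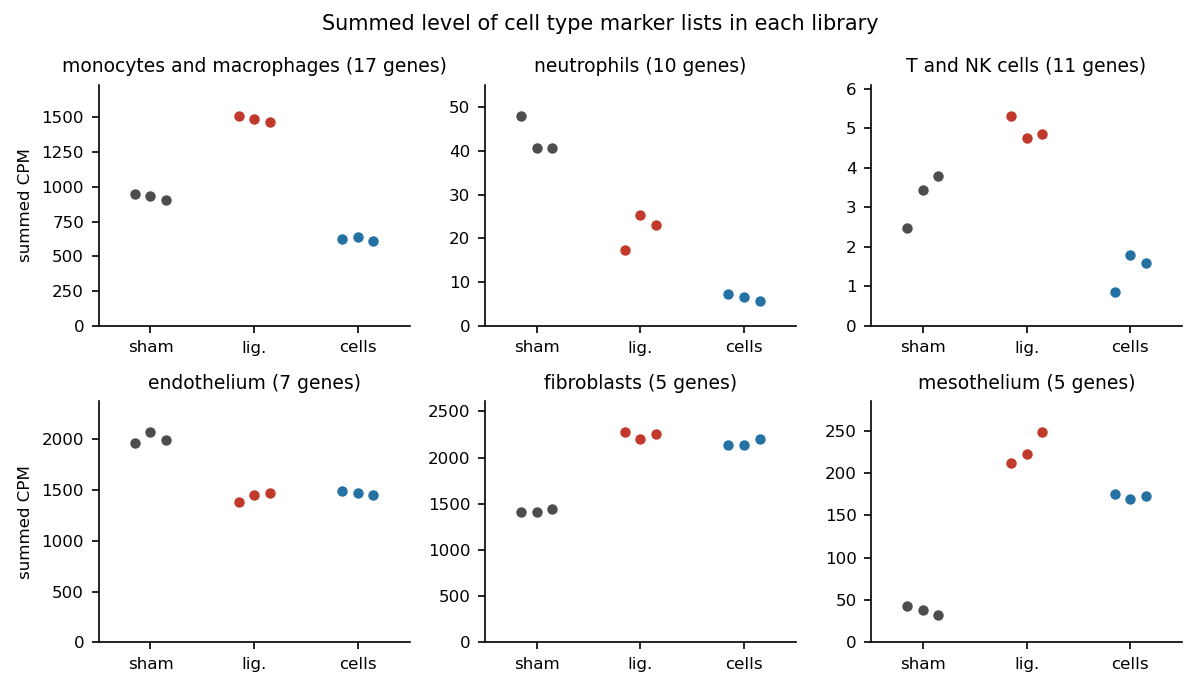
Summed CPM (y axis, linear, each panel from 0) of 6 lists of cell type markers in each of the 9 libraries, 3 per group. Monocyte and macrophage markers peaked in ligation and were lowest with cells, whereas endothelial markers were highest in sham and fibroblast and mesothelial markers were lowest there.

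Genes that relay the signal of chemokine receptors were taken as a separate list of 33, of which 31 were tested. After ligation 14 rose and 0 fell, in cells against ligation 1 rose and 14 fell, and in cells against sham 7 rose and 7 fell. Over all tested genes 20.1% were higher and 18% lower in the first comparison, 4.19% and 5.69% in the second and 21% and 20% in the third, so the last count is near that of all genes. The list's median log2 difference was 0.23, -0.40 and -0.07. The most abundant, the G protein subunit Gnai2, was at 413, 438 and 428 CPM in sham, 457, 466 and 479 in ligation and 422, 407 and 418 with cells. It rose by 0.13 after ligation and fell by 0.17 on the log2 scale with cells (edgeR adjusted p 0.0206 and 0.0149). The receptor kinase Grk3 was the 1 gene of the list called higher with cells than in ligation (log2 0.40, edgeR adjusted p 0.0335).

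Of 16 inducers of chemokine genes and NF-kB feedback genes, 12 were tested, and 4 rose (Il6, Nfkb2, Relb and Hif1a) and 2 fell (Irf1 among them) after ligation, against 20.1% higher and 18% lower over all tested genes. In cells against ligation 0 rose and 3 fell (Irf1 and Myd88 among them), against 4.19% and 5.69% of all tested genes. Tnf, Il1a, Il1b and Ifng were too low to test. Nfkbia, an early NF-kB target, was at 62.9, 60.3 and 60.8 CPM in sham, 70.98, 61.3 and 68.8 in ligation and 79.2, 74.5 and 58.3 with cells and passed in none of the comparisons. Among 12 chemokine-like genes outside the naming rule, 10 were tested, with 5 higher and 2 lower after ligation and 0 higher and 5 lower in cells against ligation, where all tested genes gave 20.1% and 18%, and 4.19% and 5.69%. The 2 lower after ligation were Pf4 and Ccrl2, and the 5 lower with cells were Pf4, Mif, Cd74, C5ar1 and C3ar1. Pf4, the platelet chemokine CXCL4, which some macrophages also make, was at 29.8, 34.3 and 32.9 CPM in sham, 20.6, 18.9 and 21.1 in ligation and 8.77, 10.2 and 10.1 with cells. It fell by 0.68 after ligation and by 1.06 with cells against ligation on the log2 scale (edgeR adjusted p 4.40e-05 and 6.80e-06). Cd74, the invariant chain of MHC class II and a receptor of the cytokine MIF, was at 104, 108 and 115 CPM in sham, 238, 202 and 203 in ligation and 60.9, 56.05 and 55.8 with cells. It rose 1.96-fold and was then 3.72-fold lower with cells than in ligation (edgeR adjusted p 5.17e-10 and 3.24e-13).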

How the data were processed

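Total RNA of 9 heart libraries was made into libraries with the NEBNext Ultra kit, per the labels' protocols. The authors deposited raw read counts per Ensembl gene, 1 file per library. The submitters' processing notes name build mm10; the aligner, counter, strand setting and annotation release are not given in the sources used here. The files end in htseq-count style lines, left out of library sizes: reads outside genes were 4.14% to 4.91% and ambiguous reads 8.09% to 8.72%. Symbols came from GENCODE M21 for 53274 of 53465 gene IDs, and promoter sequences from RefSeq. Counts were filtered (filterByExpr), TMM-scaled and fitted in 1 model of the 9 libraries (a mean for each group) in edgeR 4.0.16 under R 4.3.3 (estimateDisp, glmQLFit, glmQLFTest, two-sided, Benjamini-Hochberg over 13825 genes). Each SE was taken as the absolute log2 fold change over the root of its F statistic. The pipeline was tested on simulated data. Named members were those past 0.05 in any comparison and Ccl2, Cxcl12, Ccr2 and Cx3cr1. Other members are given by range or count, and genes of the lists by counts; a few of these genes are not reported here by name. Members and lists were chosen with earlier results of these data known. Alternatives were other scalings and filters, DESeq2 1.42.0, limma-voom 3.58.1, 2-group fits, a replicate block, leaving out each library and, added after the data were seen, summing libraries that share a header stem. Replicate pairs differed by more than sampling noise (mean chi-square per gene 1.98 to 3.96), so none was taken as a repeat read of the same library. All 9 were kept. Separate libraries of the same heart could differ in this way too, so the values do not show that the animals were separate. Floors cover counting error only, whereas each SE also holds the fitted spread between libraries. Figures were drawn with matplotlib 3.10.9.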

Additional observations from a re-analysis of the deposited data

How the results depend on the processing

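Of the 56 log2 fold changes followed (members past 0.05, and Ccl2, Cxcl12, Ccr2 and Cx3cr1), 40 kept their direction and call in every fit that tested them. With library totals alone 2 members were called lower after ligation in place of 5, losing Ackr3, Ccl11 and Ccl27a; 14 in place of 11 were higher, gaining Ackr2, Ccl9 and Cxcl16, and 11 in place of 15 were lower in cells against sham, losing Ccl7, Ccl11, Ccl27a and Cxcr4. Fits without 1 library gave 10 to 13 members higher and 3 to 6 lower after ligation, 1 to 2 higher and 10 to 14 lower with cells against ligation, and 5 to 7 higher and 11 to 16 lower with cells against sham. The additional member higher with cells against ligation was Cxcl17, also called when libraries sharing a header stem were summed, which gave 2 in place of 1. That sum gave 12 lower in place of 14, losing Cxcl16 (edgeR adjusted p 0.0911) and Cxcr4 (0.0599). DESeq2 called 10 members lower with cells against ligation in place of 14, losing Ackr2, Cxcl9, Cxcl16 and Cxcr4, and it also lost Ccl11 after ligation (adjusted p 0.0512) and Ccl11 and Cxcr4 in cells against sham (0.0567 and 0.0574). Fits of 2 groups lost Cxcl9 in cells against ligation (edgeR adjusted p 0.0643), and did not test Ackr1, Cxcl10 or Cxcr2 in cells against sham. With no filter, Ccr7 and Cxcl5 were added after ligation and Cxcl17 in cells against sham. The sign of Ccl2 in cells against ligation changed in fits without ligation replicate 2 (0.138) or cell replicate 2 (0.0645), from a range of -0.252 to 0.138 that never passed. The cause was not tested. Depth limits Ackr1, Cxcl10 and Cxcr2, with at most 24, 23 and 14 counts in a library.

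With the replicate number as a block, 11 members were higher and 4 lower after ligation, 1 and 11 in cells against ligation, and 5 and 15 in cells against sham. The calls lost were Ccl27a after ligation (edgeR adjusted p 0.0503) and Ackr2, Cxcl16 and Cxcr4 in cells against ligation (0.0580, 0.0582 and 0.0612). Across groups, libraries of the same number had deviations from their group means that correlated at -0.00687 on average (across genes, not replicates), against 0.00303 for different numbers, so the numbers were not taken as pairs.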
